A study of Homo sapiens with 6 samples.

Results

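The 35 genes described here belong to the hypoxia-inducible factor (HIF) pathway or are known HIF targets outside glycolysis. They were chosen by name, as 8 genes of the oxygen-sensing machinery and 27 target genes, and all 35 were found among the 57736 Ensembl genes of the deposited count table. Expression was measured in PC3, an established line of human prostate cancer cells that grew out of a metastasis in bone. The cells received a control siRNA (siCTRL, 3 libraries) or an siRNA against Mic60 (siMic60, 3 libraries). Mic60, encoded by IMMT, is a structural protein of the mitochondrial inner membrane and part of the MICOS complex. The labels also call the groups Mic60 WT and Mic60 KO, and no other treatment, dose, time or oxygen level is given in the sources used here. The study's methods describe siRNA transfection for pancreatic cancer lines and not for these PC3 samples, and a single Mic60-directed group was sequenced. QuantSeq libraries read polyadenylated transcripts near their 3′ end.

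Cells hold the HIF transcription factors in check through oxygen. In the presence of oxygen, the prolyl hydroxylases encoded by EGLN1, EGLN2 and EGLN3 mark the HIF alpha subunits, encoded by HIF1A and EPAS1, for capture by the VHL ubiquitin ligase and destruction, and the asparaginyl hydroxylase encoded by HIF1AN blocks their contact with coactivators. When oxygen falls, the alpha subunits persist, pair with the beta subunit encoded by ARNT and switch on genes for blood vessel growth, collagen maturation, pH control, lipid storage and feedback. This control acts mainly on protein, and only mRNA was measured here.

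Total counts per library ran from 6644495 to 8779877, and the test covered the 14653 genes that reached 10 counts in 3 or more libraries. IMMT, the targeted gene, was at 89.9 ± 1.13 CPM (counts per 1000000, after TMM scaling) in siCTRL cells and fell to 7.22 ± 1.35 CPM in siMic60 cells (mean ± SD of 3 libraries each), or 8.12% of control (log2 fold change −3.62, edgeR adjusted p = 4.38e-10). The epithelial markers KRT8, KRT18, KRT19 and EPCAM and the mesenchymal VIM were present in every library, and their summed level was 2062 to 2406 CPM in siCTRL and 1790 to 2007 CPM in siMic60 libraries. Within that sum KRT19 fell to 52.3%, EPCAM to 59.5% and KRT18 to 69.5% of the control level, while KRT8 rose 1.53-fold and VIM 1.52-fold. Of 4 prostate luminal markers, KLK3 had no count, and the summed level was 17.4 to 21.0 CPM without and 8.11 to 13.3 CPM with Mic60 silencing. Of 4 leukocyte markers, CD3E had no count and the summed level was 0.957 to 1.47 CPM in siCTRL and 0.345 to 0.977 CPM in siMic60 libraries. All 3 endothelial markers in the table (of 4 listed) had no count. Of 5 fibroblast markers, DCN had no count, and the sum of 277 to 371 CPM in siCTRL and 46.5 to 65.7 CPM in siMic60 libraries came almost wholly from COL1A1. Whether these marker changes have a part in any result below was not tested. In bulk RNA, fewer cells of a type and less RNA per cell cannot be told apart.

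Of the 35 genes, 33 passed the count filter, and Mic60 silencing moved them in both directions. A gene was said to rise or fall at a Benjamini-Hochberg adjusted p under 0.05 in edgeR's quasi-likelihood test, adjusted over all genes tested. By that rule 13 rose, 7 fell and 13 did not pass. Over the whole table, 17.7% of the genes tested rose and 17.8% fell, against 39.4% and 21.2% of the 33. The share that rose was thus above the background and the share that fell was near it. The genes were chosen with earlier results of these data known, so these shares only describe the list. The median log2 fold change of the 33 genes was −0.09, against 0.00258 over all genes, and the median size of the change regardless of sign was 0.42, against 0.37. In 21 of the 33, the 3 siMic60 libraries all lay on one side of the 3 siCTRL libraries (13 above and 8 below), or 63.6% against a background of 47.9%.

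The largest rises were those of ADM, VEGFC and PLOD2, and the largest falls those of STC1, BHLHE41 and EPAS1. Both HIF alpha subunit genes fell, 2 of the hydroxylases that restrain them fell and EGLN1 rose. The calls of HIF1A and EGLN2 were lost in some alternative fits, and HIF1AN overlaps another gene that fell, as given below. Of the 6 collagen-modifying enzymes, 3 rose and none fell. VEGFA, the best known angiogenic HIF target, did not pass the test.

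**Figure D1:**
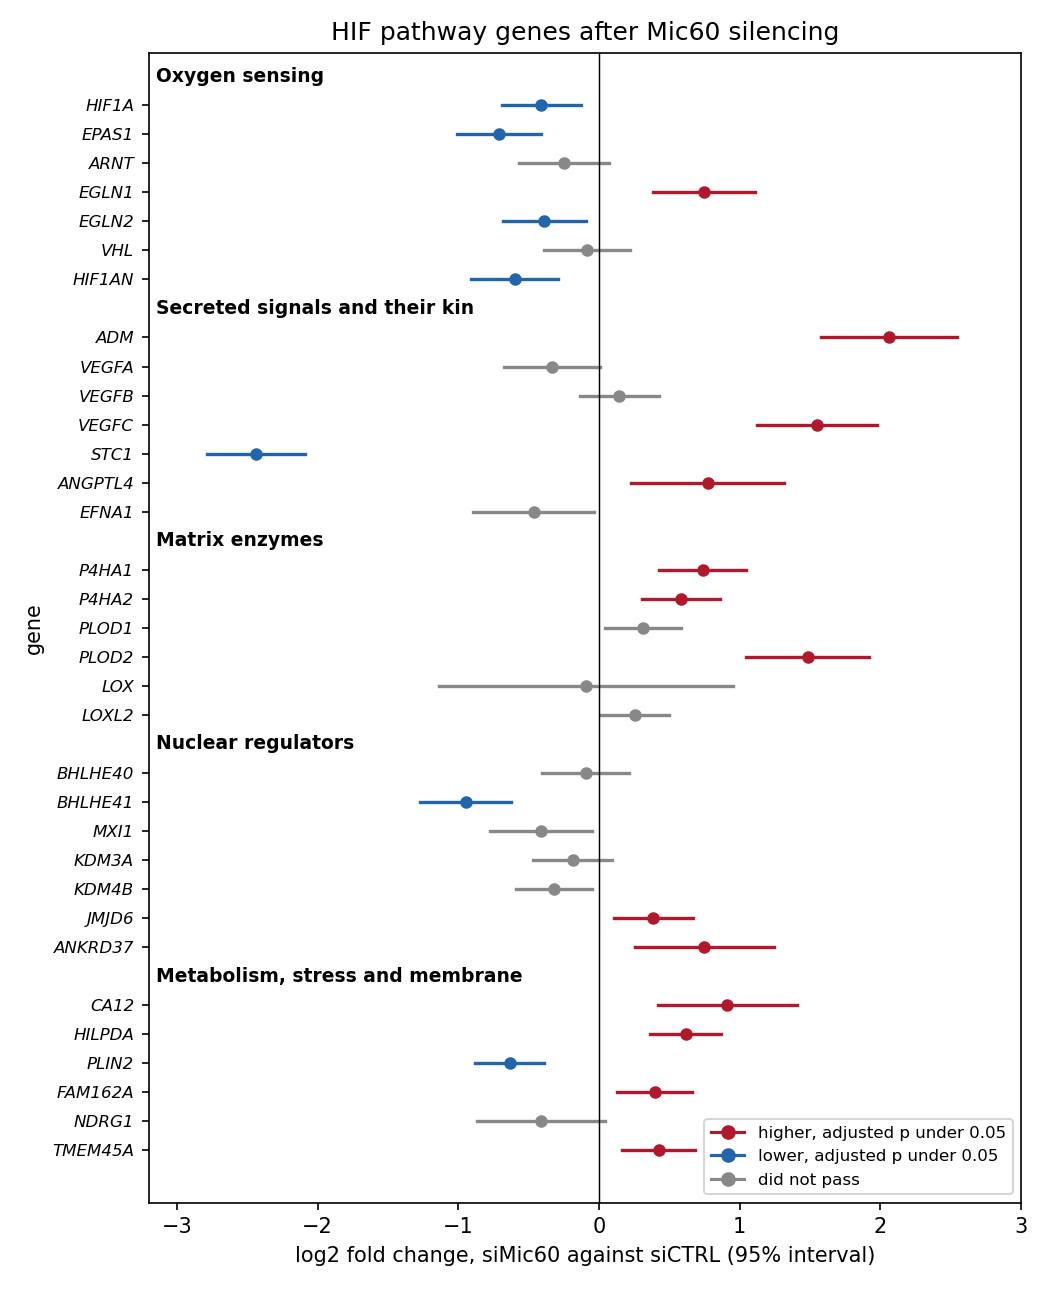
Log2 fold change of each of the 33 tested genes in siMic60 against siCTRL cells (points) with its 95% interval (lines), grouped by role, from edgeR with 3 libraries in each group. Red marks the 13 genes that rose, blue the 7 that fell and grey the 13 that did not pass, with ADM at 2.06 and STC1 at −2.44 as the extremes.

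HIF binds DNA at hypoxia response elements whose core letters are ACGTG or GCGTG, so the promoter windows of these genes were searched for both. The windows come from RefSeq (GRCh38.p14), run from 250 bases before to 50 bases after each transcription start, and could be matched to 28 of the 35 genes with 35 windows. No window was matched for VHL, VEGFA, NDRG1, LOXL2, STC1, HILPDA or JMJD6. Read on both strands, ACGTG or GCGTG stood in 27 of the 35 windows (77.1%), against 48.4% of all 35116 windows. ACGTG alone was in 16 of the 35 (45.7%), against 21.4% of all windows. It is also contained in the E-box CACGTG, the site of other basic helix-loop-helix factors, so every E-box counts as ACGTG. The E-box stood in 6 of the 35 windows (17.1%), against 7.26% of all windows. ACGTG or GCGTG was in 9 of 11 windows of genes that rose, 5 of 8 of genes that fell and 12 of 14 of tested genes that did not pass. Some genes had several windows, and by gene the counts were 9 of 11, 5 of 6 and 8 of 9. The E-box CACGTG was in 1 of 11, 3 of 8 and 2 of 14 of these windows. By gene it was in 1 of 11, 3 of 6 and 2 of 9. Many of the genes were listed as known HIF targets, so the share over their windows is a description, and a match in letters is not a measured binding site.

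The stretches below are those of the called genes whose window held ACGTG, apart from PLOD2 and PLIN2. Each is given 5′ to 3′ on the strand of the gene, with up to 18 bases on either side of the match nearest the start. Capitals mark that one match, as ACGTG or, where it is on the other strand, as CACGT. Its first base was at position −13 from the start in EGLN1, −86 in P4HA1, −84 in FAM162A, −143 in ANKRD37 and −234 in ANGPTL4, which rose, and at −47 in BHLHE41 and −48 in EGLN2, which fell. In BHLHE41 and EGLN2 the marked match is part of the E-box CACGTG, and in the genes that rose it is not. The window of ANKRD37, which rose, did hold this E-box farther from the start, with matches at −162 and −161.
EGLN1 (chr1:231422278-231422318, minus strand): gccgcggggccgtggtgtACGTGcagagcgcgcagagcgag
P4HA1 (chr10:73096930-73096970, minus strand): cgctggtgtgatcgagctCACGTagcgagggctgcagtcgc
FAM162A (chr3:122384080-122384120, plus strand): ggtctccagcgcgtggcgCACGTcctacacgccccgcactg
ANKRD37 (chr4:185396680-185396720, plus strand): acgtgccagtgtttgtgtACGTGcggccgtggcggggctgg
ANGPTL4 (chr19:8363905-8363943, plus strand): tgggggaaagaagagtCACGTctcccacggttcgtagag
BHLHE41 (chr12:26125062-26125102, minus strand): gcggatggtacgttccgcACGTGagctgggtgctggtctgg
EGLN2 (chr19:40799125-40799165, plus strand): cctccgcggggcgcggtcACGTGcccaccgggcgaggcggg

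The windows of PLOD2, which rose 2.80-fold, and PLIN2, which fell to 64.4% of its control level, are given whole as a rising and a falling gene with several matches of both kinds. Capitals mark every match of either motif on either strand. In PLOD2 the matches began at −213, −200 and −146, and in PLIN2 at −120, −85, −69, −68 and −3, the adjoining pair at −69 and −68 being the palindrome CACGTG read on both strands.
PLOD2 (chr3:146161135-146161434, minus strand): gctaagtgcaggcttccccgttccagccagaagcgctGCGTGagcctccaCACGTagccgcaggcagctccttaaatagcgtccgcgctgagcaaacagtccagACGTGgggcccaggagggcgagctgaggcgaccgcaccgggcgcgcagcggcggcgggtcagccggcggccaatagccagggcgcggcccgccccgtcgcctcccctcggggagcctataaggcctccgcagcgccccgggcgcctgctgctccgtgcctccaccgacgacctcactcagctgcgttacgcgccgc
PLIN2 (chr9:19127443-19127742, minus strand): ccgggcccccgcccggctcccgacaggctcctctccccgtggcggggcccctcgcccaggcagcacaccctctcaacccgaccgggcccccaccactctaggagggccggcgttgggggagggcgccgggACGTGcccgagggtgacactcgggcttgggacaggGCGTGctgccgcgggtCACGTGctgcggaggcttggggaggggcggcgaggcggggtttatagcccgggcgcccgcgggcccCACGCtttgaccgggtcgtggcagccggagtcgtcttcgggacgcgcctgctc

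In the oxygen-sensing machinery, Mic60 silencing was associated with lower mRNA of both HIF alpha subunits. HIF1A (ENSG00000100644), the broadly expressed alpha subunit, was at 199.7, 194 and 205 CPM in the siCTRL libraries and at 137, 132 and 182 CPM in the siMic60 libraries. All 3 siMic60 values lay below the lowest siCTRL value, with siMic60 replicate 3 close to it. The log2 fold change was −0.41 (standard error 0.13, edgeR adjusted p = 0.0247). This call was lost when siCTRL replicate 2 or 3 or siMic60 replicate 1 or 2 was left out (edgeR adjusted p = 0.0506 to 0.105), and the log2 fold change then ran from −0.31 to −0.43. EPAS1 (ENSG00000116016), which encodes HIF-2 alpha, was at 36.2, 35.3 and 42.4 CPM in siCTRL and 25.7, 21.7 and 22.3 CPM in siMic60 libraries. The groups did not overlap, and the log2 fold change of −0.71 (standard error 0.14, edgeR adjusted p = 0.00121) held with any one library left out (−0.63 to −0.78). The balance of HIF1A to EPAS1 within a library overlapped between the groups (log2 ratio 2.39 ± 0.11 in siCTRL and 2.68 ± 0.31 in siMic60, SD, n = 3 each, p = 0.3 in a two-sided exact permutation test). ARNT, their shared partner, was at 24.6 ± 3.01 and 20.7 ± 0.804 CPM (SD, n = 3 each) and did not pass (log2 fold change −0.25, 95% interval −0.57 to 0.07).

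The prolyl hydroxylases did not move together. EGLN1 (ENSG00000135766, PHD2), the main oxygen sensor for HIF in most cells, was at 17.3, 21.2 and 22.2 CPM in siCTRL and 28.5, 31.6 and 41.8 CPM in siMic60 libraries. Every siMic60 value was higher, and siMic60 replicate 3 stood highest. EGLN1 rose 1.68-fold (95% interval 1.31 to 2.16, edgeR adjusted p = 0.00302). EGLN2 (ENSG00000269858, PHD1) was at 29.7, 28.3 and 28.5 CPM in siCTRL and 21.6, 23.9 and 20.6 CPM in siMic60 libraries, again with no overlap but in the other direction. Its log2 fold change was −0.39 (standard error 0.14, edgeR adjusted p = 0.0411), and the call was lost under 8 of the 12 alternatives, DESeq2 among them (adjusted p = 0.0661). Within each library, the log2 ratio of EGLN1 to EGLN2 was −0.77, −0.42 and −0.36 in siCTRL and 0.40, 0.40 and 1.02 in siMic60 cells. The ratio thus rose 2.17-fold without overlap (p = 0.1 in a two-sided exact permutation test, which can go no lower with 3 libraries a group, and 0.275 when adjusted over the 11 ratios compared). EGLN3 (PHD3), which is often induced by hypoxia, had 0, 3 and 2 counts in siCTRL and 5, 0 and 2 counts in siMic60 libraries, too few for the test.

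Of the other restraints on HIF, HIF1AN fell and VHL did not pass. HIF1AN (ENSG00000166135), the factor-inhibiting hydroxylase, was at 58.5, 45.1 and 51.6 CPM in siCTRL and 36.7, 37.1 and 28.9 CPM in siMic60 libraries. The groups did not overlap (log2 fold change −0.60, standard error 0.15, edgeR adjusted p = 0.00496). HIF1AN overlaps NDUFB8, a gene for a complex I subunit on the opposite strand, which had 6164 and 4480 counts over the siCTRL and siMic60 libraries against 1270 and 795 for HIF1AN and also fell. Whether counting used strand is not given in the sources used here. Without strand, reads of such a pair cannot be told apart. Among the genes described here, 11 overlapped a gene, on either strand, with 30 or more counts over a group. VHL, the substrate-binding part of the ligase, was at 82.1 ± 4.89 and 77.5 ± 16.1 CPM (SD, n = 3 each) with a log2 fold change of −0.09 (95% interval −0.39 to 0.22). Its 3 siMic60 values, 95.9, 70.8 and 65.8 CPM, lay on both sides of the siCTRL range.

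**Figure D2:**
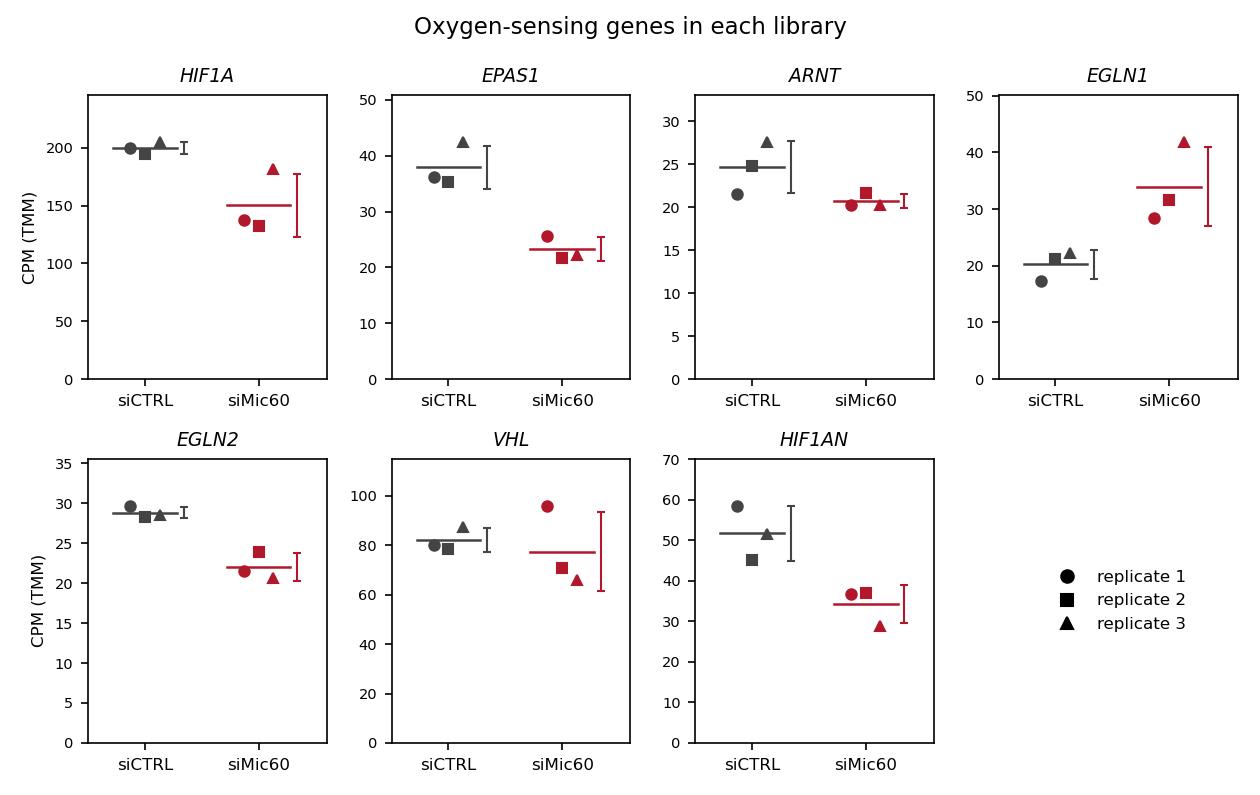
CPM of 7 oxygen-sensing genes in each library (points, shaped by replicate number), with the mean (line) and SD (bar) of the 3 siCTRL (grey) and 3 siMic60 (red) libraries. EGLN1 is higher and HIF1A, EPAS1, EGLN2 and HIF1AN are lower in all 3 siMic60 libraries, while ARNT and VHL overlap.

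Among secreted factors, ADM and VEGFC rose and STC1 fell. ADM (ENSG00000148926) encodes adrenomedullin, a peptide that widens and stabilizes vessels. It was at 14.95, 16.3 and 8.23 CPM in siCTRL and 52.2, 69.8 and 43.1 CPM in siMic60 libraries. Every siMic60 value was well above the highest siCTRL value, although both groups varied, and ADM rose 4.17-fold (95% interval 2.99 to 5.83, edgeR adjusted p = 6.93e-06). The ADM receptor CALCRL had no count in any library. Of its partners, RAMP1 was at 78.1 to 134 CPM, RAMP2 had at most 3 counts in any library and RAMP3 had none.

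Of the vascular endothelial growth factors, VEGFC rose, and VEGFA and VEGFB did not pass. VEGFA (ENSG00000112715), the main hypoxic driver of vessel sprouting, was at 48.9, 71.1 and 77.9 CPM in siCTRL and 52.5, 47.7 and 56.8 CPM in siMic60 libraries. The siCTRL replicate 1 value lay among the siMic60 values. VEGFA did not pass (log2 fold change −0.33, 95% interval −0.67 to 0.01, edgeR adjusted p = 0.119), and without siCTRL replicate 1 it fell (log2 fold change −0.51, edgeR adjusted p = 0.00693). VEGFB, linked to vessel maintenance and fatty acid uptake, did not pass either (log2 fold change 0.14, 95% interval −0.14 to 0.42). The log2 ratio of VEGFA to VEGFB overlapped between the groups (difference −0.46, exact permutation p = 0.3, 0.471 adjusted). VEGFC (ENSG00000150630), a growth factor for lymphatic vessels, was at 6.70, 8.36 and 11.7 CPM in siCTRL and 22.9, 27.5 and 27.8 CPM in siMic60 libraries. The groups were well apart, and VEGFC rose 2.93-fold (95% interval 2.18 to 3.95, edgeR adjusted p = 3.23e-05). The log2 ratio of VEGFA to VEGFC moved from 2.88 ± 0.17 to 1.00 ± 0.20 (SD, n = 3 each), so that the ratio fell to 0.272 of its control value with no overlap (exact permutation p = 0.1, again the lowest possible, and 0.275 adjusted). NRP2, a co-receptor for VEGFC, rose 2.25-fold (edgeR adjusted p = 4.99e-05). The receptors FLT1 and KDR, at 1.32 to 4.59 CPM over all libraries, did not pass, and FLT4 was too low to be tested.

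STC1 (ENSG00000159167), a secreted stanniocalcin often induced by hypoxia, fell the most of the 33 genes. It was at 59.5, 51.8 and 44.5 CPM in siCTRL and 8.57, 9.16 and 10.8 CPM in siMic60 libraries, which left 18.4% of the control level (log2 fold change −2.44, standard error 0.16, edgeR adjusted p = 3.51e-08). The spread within each group was small beside this gap, and the value kept between −2.33 and −2.55 with any one library left out. Its relative STC2 averaged 298 ± 42.4 CPM without and 506 ± 96.2 CPM with Mic60 silencing (SD, n = 3 each), a rise of 1.70-fold. ANGPTL4, an inhibitor of lipoprotein lipase, was at 10.04, 8.86 and 10.5 CPM in siCTRL and 19.7, 21.2 and 9.55 CPM in siMic60 libraries. Its siMic60 replicate 3 lay within the siCTRL range, and the rise of 1.71-fold (edgeR adjusted p = 0.028) was lost when siCTRL replicate 2 or siMic60 replicate 1 or 2 was left out (edgeR adjusted p = 0.0891 to 0.139). RAB11B-AS1, on the opposite strand of ANGPTL4, had 273 and 181 counts over the groups, against 240 and 386 for ANGPTL4, and did not pass. EFNA1, a membrane-bound ephrin ligand, did not pass (log2 fold change −0.46, edgeR adjusted p = 0.0887). It fell without siMic60 replicate 3 (log2 fold change −0.73, edgeR adjusted p = 0.0162) and with no minimum count (edgeR adjusted p = 0.0261).

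Of the 4 collagen hydroxylases of the endoplasmic reticulum among these genes, P4HA1, P4HA2 and PLOD2 rose and PLOD1 did not pass. P4HA1 (ENSG00000122884), a catalytic subunit of collagen prolyl 4-hydroxylase, was at 381, 443 and 426 CPM in siCTRL and 617, 587 and 882 CPM in siMic60 libraries. The siMic60 libraries were all higher, with replicate 3 well over the other two, and P4HA1 rose 1.67-fold (95% interval 1.35 to 2.07, edgeR adjusted p = 0.00111). P4HA2, the alternative catalytic subunit, was at 52.5, 42.6 and 40.3 CPM in siCTRL and 67.0, 65.6 and 70.4 CPM in siMic60 libraries, a rise of 1.499-fold (edgeR adjusted p = 0.00277). P4HA2 overlaps PDLIM4 on the opposite strand, which had 3679 and 1955 counts over the groups and fell. PLOD2 (ENSG00000152952), a lysyl hydroxylase that acts on collagen telopeptides, was at 28.6, 53.5 and 61.1 CPM in siCTRL and 147, 119.9 and 134 CPM in siMic60 libraries. Its lowest siMic60 value was about 2 times the highest siCTRL value, and PLOD2 rose 2.80-fold (95% interval 2.06 to 3.79, edgeR adjusted p = 5.96e-05). Its window, printed above, held 3 core matches.

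PLOD1, which hydroxylates the collagen helix, was higher in every siMic60 library (167, 173 and 187 CPM against 164, 126 and 133 CPM) but did not pass (log2 fold change 0.31, 95% interval 0.05 to 0.58, edgeR adjusted p = 0.0637). Without siCTRL replicate 1 it rose (edgeR adjusted p = 0.00853). The log2 ratio of PLOD2 to PLOD1 moved from −1.63 ± 0.78 to −0.40 ± 0.19 (SD, n = 3 each), with no overlap (exact permutation p = 0.1, again the lowest possible, and 0.275 adjusted). The change of this ratio was 1.23 on the log2 scale and 0.78 without siCTRL replicate 1. Neither of the lysyl oxidases, which cross-link collagen outside the cell, passed the test. LOX had only 6 to 17 counts per library and did not pass (95% interval of the log2 fold change −1.13 to 0.95). SRFBP1, on the opposite strand of LOX, had 504 and 706 counts over the groups and rose. LOXL2 was higher in every siMic60 library without passing (209 ± 11.6 against 175 ± 13.8 CPM, SD, n = 3 each, edgeR adjusted p = 0.0947).

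Related enzymes outside the 35 genes were read beside them. P4HB, the partner subunit of P4HA1 and P4HA2, rose 1.64-fold (edgeR adjusted p = 0.000262), and the third lysyl hydroxylase PLOD3 rose 1.71-fold (edgeR adjusted p = 0.000208). LOXL4 fell to 19.5% of its control level, from 61.6 ± 4.17 to 11.8 ± 3.50 CPM (SD, n = 3 each, edgeR adjusted p = 1.86e-07). LOXL1 and P4HA3 did not pass, and LOXL3 was too low to be tested.

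**Figure D3:**
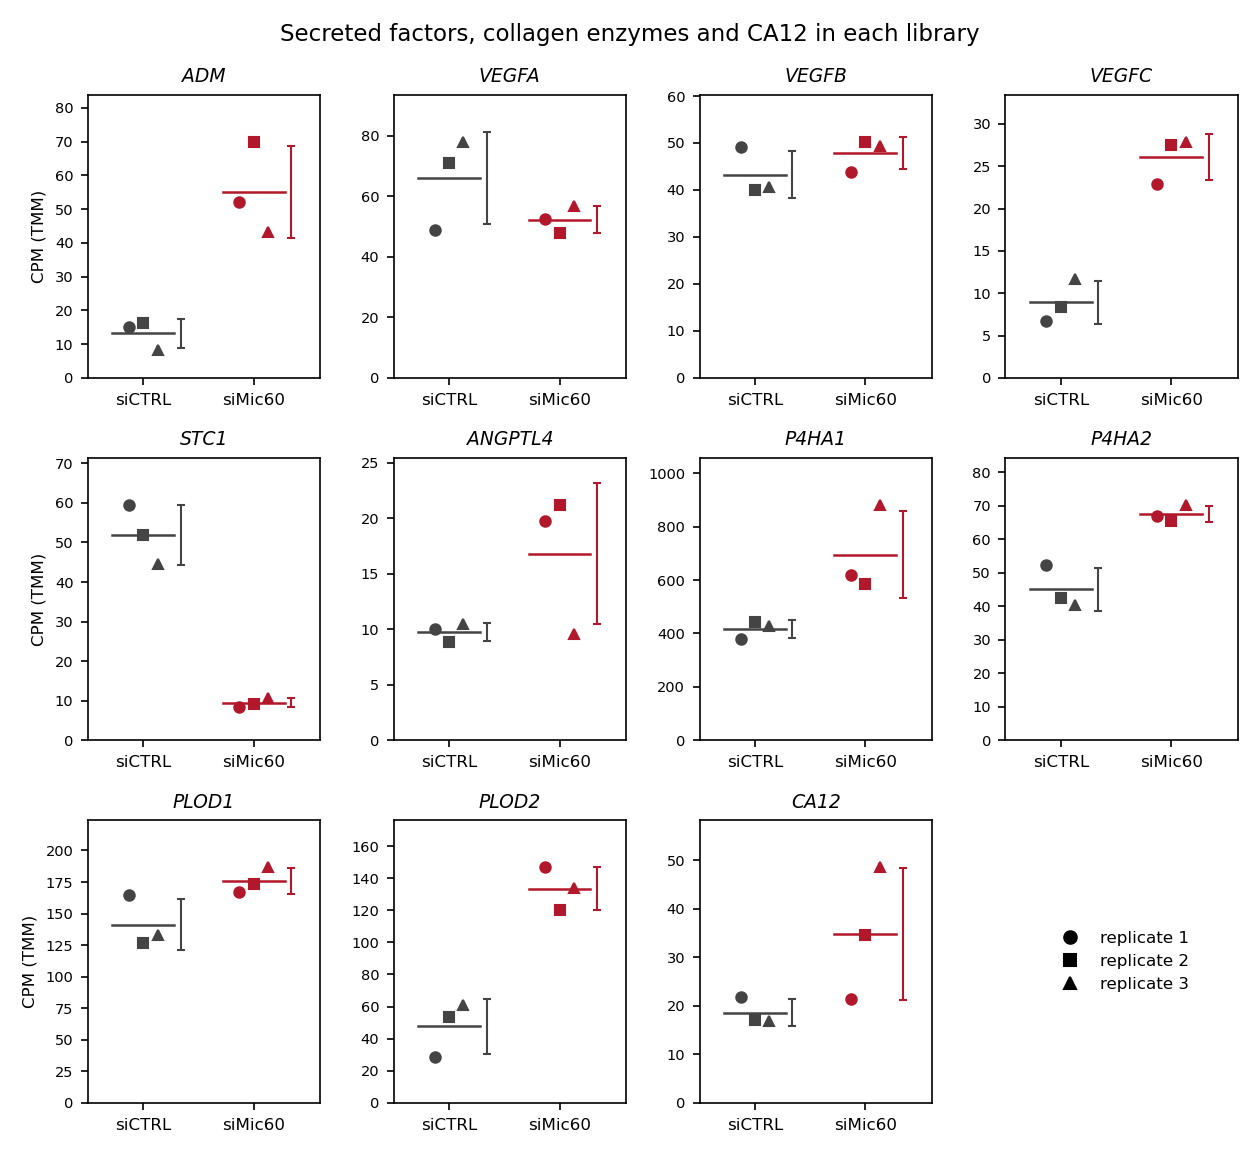
CPM of 11 target genes in each library (points, shaped by replicate number), with the mean (line) and SD (bar) of the 3 siCTRL (grey) and 3 siMic60 (red) libraries and each vertical axis starting at 0. The groups are apart for ADM, VEGFC, STC1, P4HA1, P4HA2, PLOD1 and PLOD2 and overlap for VEGFA, VEGFB, ANGPTL4 and CA12.

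Among nuclear regulators, the pair of HIF-induced clock repressors came apart. BHLHE41 (ENSG00000123095, DEC2) was at 92.4, 86.8 and 79.4 CPM in siCTRL and 33.96, 46.5 and 53.1 CPM in siMic60 libraries. It fell without overlap to 51.9% of its control level (log2 fold change −0.95, standard error 0.15, edgeR adjusted p = 0.000219). The gene SSPN, which overlaps it on the opposite strand with 944 and 629 counts over the groups, also fell. BHLHE40 (DEC1) was at 41.4 ± 2.73 and 38.7 ± 6.996 CPM (SD, n = 3 each) and did not pass (95% interval of the log2 fold change −0.40 to 0.22). The log2 ratio of BHLHE40 to BHLHE41 moved from −1.05 ± 0.15 to −0.19 ± 0.16 (SD, n = 3 each) with no overlap (exact permutation p = 0.1, again the lowest possible, and 0.275 adjusted).

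MXI1, which competes with MYC for its partner MAX, was at 32.5 ± 3.20 and 24.4 ± 5.85 CPM (SD, n = 3 each) and did not pass (edgeR adjusted p = 0.0734), with siMic60 replicate 3 at 30.9 CPM inside the siCTRL range. MXI1 fell without that library (log2 fold change −0.63, edgeR adjusted p = 0.0128) and with library totals in place of TMM (edgeR adjusted p = 0.0494). In the same libraries MAX rose 1.38-fold, MXD1 1.56-fold and MXD3 1.81-fold. Of the histone demethylases, KDM3A did not pass (log2 fold change −0.19, 95% interval −0.47 to 0.10). KDM4B was lower in every siMic60 library without passing (101 ± 13.9 against 126 ± 8.21 CPM, SD, n = 3 each, edgeR adjusted p = 0.0648), and it fell with library totals in place of TMM, with a minimum of 50 counts and without siMic60 replicate 3 (edgeR adjusted p = 0.0371 to 0.0433). JMJD6, an oxygenase that acts on nuclear proteins, rose 1.31-fold (edgeR adjusted p = 0.0329), a call lost with library totals in place of TMM (edgeR adjusted p = 0.0604) and in 4 of 6 fits with one library left out. ANKRD37, a small ankyrin repeat protein, rose 1.68-fold from 5.75 ± 0.792 CPM (SD, n = 3, edgeR adjusted p = 0.0205), and the call was lost without siCTRL replicate 3 or siMic60 replicate 2 (edgeR adjusted p = 0.0847 and 0.0896). UFSP2, on the opposite strand of ANKRD37, had 751 and 429 counts over the groups and fell.

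Of the metabolic, stress and membrane targets, HILPDA, CA12, FAM162A and TMEM45A rose, PLIN2 fell and NDRG1 did not pass. HILPDA (ENSG00000135245), which inhibits the lipase ATGL and so favours lipid droplets, was at 78.9, 79.4 and 81.0 CPM in siCTRL and 109, 131 and 127 CPM in siMic60 libraries. The siCTRL values were nearly equal and all siMic60 values higher, a rise of 1.53-fold (95% interval 1.29 to 1.83, edgeR adjusted p = 0.000957). PLIN2 (ENSG00000147872), a coat protein of lipid droplets, was at 104, 102 and 95.4 CPM in siCTRL and 62.3, 67.8 and 64.1 CPM in siMic60 libraries. It fell as evenly as HILPDA rose (log2 fold change −0.63, standard error 0.11, edgeR adjusted p = 0.000572). Of 11 other tested genes of lipid droplets and fatty acid metabolism, 3 rose (27.3%) and 4 fell (36.4%). Over all genes tested, 17.7% rose and 17.8% fell. The diacylglycerol acyltransferase DGAT2 fell to 47.5%, the mitochondrial carnitine acyltransferase CPT1A to 53.3% and the droplet coat PLIN4 to 30.4% of the control level. ABHD5, a coactivator of ATGL, rose 1.79-fold. Droplet coat genes went both ways. PLIN3, at 187 CPM in siCTRL cells, rose 1.54-fold (edgeR adjusted p = 0.00165), and PLIN5, at 1.88 CPM, fell to 21.1% of the control level.

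CA12 (ENSG00000074410), a carbonic anhydrase at the cell surface that takes part in pH control, was at 21.9, 17.1 and 16.8 CPM in siCTRL and 21.4, 34.6 and 48.5 CPM in siMic60 libraries. The siMic60 libraries differed widely among themselves, and replicate 1 lay within the siCTRL range. The rise of 1.88-fold (95% interval 1.34 to 2.65, edgeR adjusted p = 0.00646) was lost without siMic60 replicate 3 (log2 fold change 0.60, edgeR adjusted p = 0.0537, against 0.91 with it). CA9, the carbonic anhydrase most used as a hypoxia marker, had 1, 2 and 5 counts in siCTRL and 1, 12 and 10 counts in siMic60 libraries and missed the count filter. ARHGEF39, on the opposite strand of CA9, had 162 and 171 counts over the groups. NDRG1, a stress-responsive gene and strong hypoxia marker, was at 708, 429 and 451 CPM in siCTRL and 285, 364 and 544 CPM in siMic60 libraries. The groups overlapped, with siCTRL replicate 1 and siMic60 replicate 3 highest in their groups, and NDRG1 did not pass (log2 fold change −0.41, edgeR adjusted p = 0.149). Its log2 fold change was −0.15 without siCTRL replicate 1 and −0.70 without siMic60 replicate 3, where it fell (edgeR adjusted p = 0.0218), as it did with no minimum count (edgeR adjusted p = 0.00663). FAM162A, a mitochondrial protein linked to hypoxic cell death, rose 1.32-fold (edgeR adjusted p = 0.0217), and TMEM45A, a membrane protein, rose 1.34-fold (edgeR adjusted p = 0.0128). The call for FAM162A was lost without siCTRL replicate 2 or 3 or siMic60 replicate 3 (edgeR adjusted p = 0.0904, 0.0731 and 0.119). That for TMEM45A was lost without siCTRL replicate 2 or siMic60 replicate 3 (edgeR adjusted p = 0.0677 and 0.0572).

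For these genes the libraries were not even in either group. Among the 3 siMic60 libraries, replicate 3 had the highest value for 21 of the 33 genes (63.6%) and for 32.6% of all genes tested. Replicate 1 had the lowest value for 18 of the 33 (54.5%) and for 34.7% of all genes tested. Among the 3 siCTRL libraries, replicate 2 had the highest value for 4 of the 33 (12.1%) and for 27.9% of all genes tested. The same library had the lowest value for 15 of the 33 (45.5%) and for 32.0% of all genes tested. Without siMic60 replicate 3, 9 genes rose and 10 fell in place of 13 and 7. Total counts were largest in siMic60 replicate 3 and smallest in siMic60 replicate 1, and the part of depth or of other differences between these libraries was not tested. Of the 20 genes called, 12 kept their call under all 12 alternatives wherever they were tested: EGLN1, ADM, VEGFC, P4HA1, P4HA2, PLOD2 and HILPDA rose, and EPAS1, HIF1AN, BHLHE41, STC1 and PLIN2 fell.

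**Figure D4:**
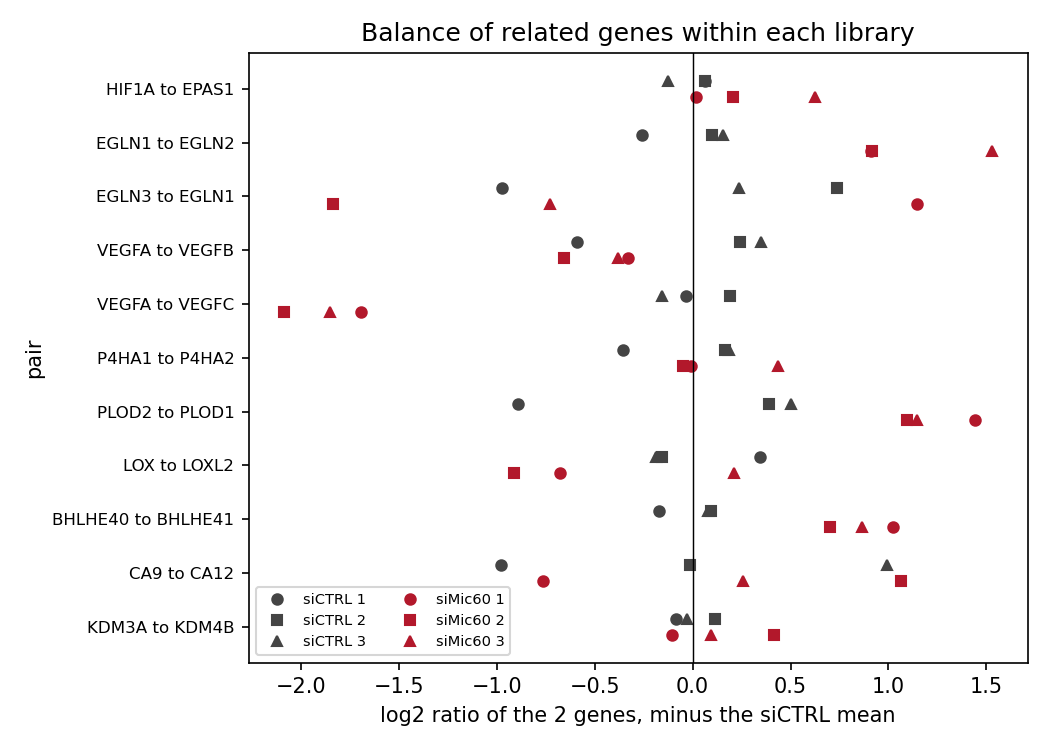
Log2 ratio of the 2 named genes within each library, minus the mean of that ratio in siCTRL, for 11 pairs of related genes, with 1 point for each of 3 siCTRL (grey) and 3 siMic60 (red) libraries. The groups do not overlap for EGLN1 to EGLN2, VEGFA to VEGFC, PLOD2 to PLOD1 and BHLHE40 to BHLHE41, and they overlap for the other 7.

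A further 7 lists of HIF pathway and related genes were read beside the 35, with 89 of their 106 genes tested. Of these, 28 rose (31.5%) and 13 fell (14.6%, and 8 genes without siCTRL replicate 1). Over all genes tested, 17.7% rose and 17.8% fell. In the rest of the HIF machinery, 1 of 13 tested genes rose (7.69%) and 2 fell (15.4%). The chaperone HSP90AA1 was 1.36-fold higher. ELOB, part of the VHL ligase, was at 72.6% and the transmembrane prolyl hydroxylase P4HTM at 71.8% of the control level. The rise of HSP90AA1 was lost without siCTRL replicate 3 or siMic60 replicate 2. Both falls were lost without siCTRL replicate 1 or siMic60 replicate 1, and 1 fall was called without siMic60 replicate 2 or 3. The coactivators CREBBP and EP300 did not pass. Glycolytic HIF targets were near the background, as 4 of 22 rose and 3 fell. The regulator PFKFB4 rose 1.89-fold, its relative PFKFB3 1.42-fold and the glucose transporter SLC2A1 1.49-fold, while the enolase ENO2 fell to 48.2% of its control level. PGK1, LDHA and PDK1 did not pass.

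Of 4 tested mitochondrial HIF targets, the mitophagy receptor BNIP3 rose 1.77-fold (edgeR adjusted p = 0.00105) and the protease LONP1 1.57-fold (edgeR adjusted p = 0.00154). As with many of the 35 genes, BNIP3 was highest in siMic60 replicate 3, at 131 CPM against 82.8 and 86.0 CPM in the other 2 siMic60 libraries. Of 24 other hypoxia genes outside glycolysis, 11 rose (45.8%) and 3 fell (12.5%), against 17.7% and 17.8% of all genes tested. IGFBP3, which the study chose for its Mic60-low signature by its upregulation and which is therefore not independent evidence of direction, rose 19.6-fold, and the heme oxygenase HMOX1 rose 6.11-fold. The ectonucleotidase NT5E, which makes adenosine, rose 2.06-fold, and the cyclin CCNG2 fell to 29.2% of its control level.

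**Figure D5:**
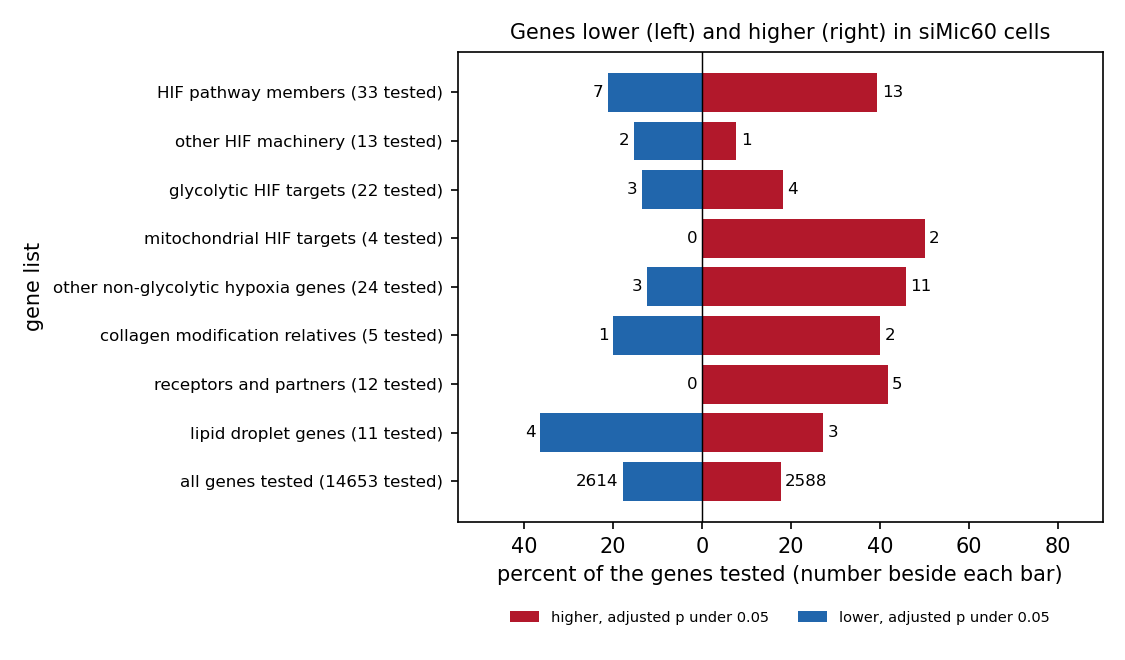
Share of tested genes in each list that was higher (right, red) or lower (left, blue) in siMic60 against siCTRL cells at an edgeR adjusted p under 0.05, with the number of genes beside each bar. The 35 genes described here (top) had 13 higher and 7 lower, and the bottom bar gives all 14653 genes tested, at 17.7% higher and 17.8% lower.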

How the data were processed

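RNA of PC3 cells was sequenced from QuantSeq 3′ mRNA libraries, 3 siCTRL and 3 siMic60. The authors deposited whole-number counts per Ensembl gene, 1 column per library, without normalization. RSEM 1.2.3, DESeq2 and hg19 (GRCh37) stand in the submitters' processing notes. RSEM estimates counts, and the whole numbers may be its rounded estimates. The sources used here do not give the aligner, annotation or strand setting. Identifiers were matched to symbols for 52301 of 57736 rows. No coordinates are taken from the count table, and promoter windows are on GRCh38.p14.

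Counts were tested across all genes in R 4.3.3 with edgeR 4.0.16: TMM, at least 10 counts in at least 3 libraries, quasi-likelihood test, Benjamini-Hochberg adjustment over 14653 genes and a threshold of 0.05. Intervals are 95% intervals from the standard error. Ratios of 2 genes used a prior count of 1 and a two-sided exact permutation test in scipy 1.17.1. Alternatives were a fit without each library, a fit with the replicate number as a block, DESeq2 1.42.0, scaling by its size factors or by library totals, and a count minimum of 50 or none. The edgeR step was tested on simulated data. The genes and lists were chosen with earlier results of these data known. Named are all 35 genes, IMMT and, from the other lists, the 4 called genes with the smallest adjusted p, and others chosen after their values were seen. A few genes that this rule or the marker lists hold are not reported here. The labels do not say whether replicates are separate cultures, so p-values rest on a spread between libraries that may be technical. Between libraries of a group, the chi-square of counts per degree of freedom was 3.54 to 13.5, above sampling noise.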

Additional observations from a re-analysis of the deposited data

How the results depend on the processing

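The number of the 35 genes that rose was 12 to 13 under the 6 alternatives that keep all libraries and 9 to 14 with one library left out, and the number that fell was 6 to 9 and 5 to 10. DESeq2's test gave 13 and 6. The count of genes of the other lists that fell ran from 8 (without siCTRL replicate 1) to 12 with one library left out, against 13. IMMT kept its direction and its call under all 12 alternatives (log2 fold change −3.76 to −3.49 with one library left out).

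Values near 0 changed sign in some of these fits. With one library left out, the log2 fold change ran from −0.26 to 0.0211 for VHL, from −0.19 to 0.19 for LOX and from −0.25 to 0.0119 for BHLHE40, none of them called. The change in the log2 ratio ran from −1.29 to 0.21 for EGLN3 to EGLN1, from −0.0530 to 0.22 for P4HA1 to P4HA2, from −0.30 to 0.68 for CA9 to CA12 and from −0.0044 to 0.25 for KDM3A to KDM4B. With a prior count of 5, CA9 to CA12 was at −0.205 against 0.19. EGLN3 and CA9 rest on a few counts in each library, which limits both ratios; for the others the cause was not tested.

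The labels number the replicates 1 to 3 in both groups. Deviations from the group means correlated between same-numbered libraries at −0.09 to 0.03 and between other libraries at −0.09 to 0.11, so the numbers were not taken as pairs. In a fit with a replicate block, 13 of the 35 genes rose and 7 fell, with the call of EGLN2 lost (edgeR adjusted p = 0.0672) and that of MXI1 gained (log2 fold change −0.43, edgeR adjusted p = 0.0486). The falls in the rest of the HIF machinery were 1 in place of 2 under the block, and over all genes 2387 rose and 2378 fell. With library totals in place of TMM, the split over all genes was 2223 higher and 2999 lower, against 2588 and 2614.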
